A study of Rattus norvegicus with 8 samples.

Results

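The miR-15/16 superfamily is a set of microRNAs (miRNAs) that share almost the same seed and are known for holding back cell division. Its members were chosen by name, as every rat miRNA on the array whose name begins with miR-15b, miR-16, miR-195, miR-497, miR-322 or miR-503. This gave 12 of the 758 rat miRNAs measured, namely the 6 guide strands, all of them 5p, and their 6 passenger strands, all of them 3p. The rule uses names alone, and no measured value. The study profiled tissue of the prostatic urethra from male Sprague Dawley (SD) rats aged 10 to 12 months, taken on day 5 after the operation, while the wound was being repaired. The TULP animals modelled transurethral laser prostatectomy, in which the urothelium of the prostatic urethra was vaporized with a thulium laser passed through a bladder incision. The sham group had an abdominal midline incision and no laser, and gave tissue from the same place. Each group held 4 animals with 1 array each, and the groups differ by the bladder incision and the endoscope as well as by the laser. For the TULP samples, titles and treatment entries name trauma while descriptions name sham surgery, and the groups used here rest on the titles.

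A miRNA loads into Argonaute and pairs through its seed, bases 2 to 8, with messenger RNAs that are then repressed. Members of the miR-15/16 superfamily are known to repress cyclins D and E, CDK4, CDK6, CHK1, WEE1 and BCL2, and so to favour arrest in G1 and cell death. In heart and muscle, miR-195 and miR-497 are known to rise after birth as cells leave the cell cycle. The rodent miR-322 corresponds to human miR-424, and its cluster with miR-503 is induced during muscle differentiation. Messenger RNAs, proteins and cell division were not analysed here, so the values below describe the miRNAs alone.

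The mature guide strands are shown because the shared seed defines the set and the bases after it separate the members on the array. Capitals mark the seed, and the letters come from RefSeq on the rat build GRCr8, where all 12 members were found by name.
rno-miR-15b-5p: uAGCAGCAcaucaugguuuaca
rno-miR-16-5p: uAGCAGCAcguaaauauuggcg
rno-miR-195-5p: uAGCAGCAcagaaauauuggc
rno-miR-497-5p: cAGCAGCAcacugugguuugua
rno-miR-322-5p: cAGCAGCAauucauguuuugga
rno-miR-503-5p: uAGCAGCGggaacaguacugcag
The seed AGCAGCA was found in 5 of the 693 mature rat miRNAs of the RefSeq table, and these were the first 5 members above. The search covered that table alone. miR-15a-5p, a relative that is on the array, was not among those found, so the count may miss carriers of the seed. The last base of the seed is G in miR-503-5p, and 1 mature miRNA of the table carries AGCAGCG. Beyond the seed the strands diverge. Over aligned positions, miR-16-5p and miR-195-5p share 19 of 21 bases, although they come from different chromosomes. The partners from one transcript are less alike, with 14 of 22 bases shared by miR-15b-5p and miR-16-5p and 12 of 21 by miR-195-5p and miR-497-5p.

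The 6 genes form 3 pairs on 3 chromosomes. Mir15b (chr2:155555178-155555275) and Mir16 (chr2:155555327-155555421) lie 51 bases apart inside Smc4, the gene of a condensin subunit that packs chromosomes for mitosis. Mir497 (chr10:55450171-55450239) and Mir195 (chr10:55450495-55450581) lie 255 bases apart, and no annotated gene overlaps them. Mir503 (chrX:137725856-137725926) and Mir322 (chrX:137726147-137726241) lie 220 bases apart inside the long noncoding RNA gene LOC102550366. All positions are on GRCr8. Other copies of a member were not analysed here.

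Because miR-16-5p and miR-195-5p are so alike, the probes that separate them are shown. Capitals mark probe bases that do not pair with the other miRNA.
miR-16-5p probe: CgccaatatttACgtgctg
miR-195-5p probe: gccaatatttCTgtgctgc
The miR-16-5p probe has 3 such bases of 19, and the miR-195-5p probe has 2 of 19. How far each probe also binds the other miRNA was not tested. The probes of miR-15b-5p, miR-497-5p and miR-322-5p have at least 5 mismatches to the nearest other guide strand.

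Of the 12 members, 5 guide strands were detected on all 8 arrays, miR-503-5p was detected on 1 array, and the 6 passenger strands were detected on none. A miRNA counted as detected where the total signal of at least 1 of its probes exceeded 3 times its error. Of these 5 guide strands, those that passed the test did so in both directions. After quantile normalization, which gives every array the same distribution of values, miR-15b-5p and miR-322-5p were higher in the TULP group, miR-195-5p was lower, and miR-16-5p and miR-497-5p did not pass the test. The test was limma on log2 signals of 151 miRNAs, those with 4 or more detections among the 8 arrays, with an adjusted p under 0.05 as the threshold. It called 3 of the 5 tested members, 2 higher and 1 lower, where 46 of the 151 miRNAs (30.5%) were called, 13.9% higher and 16.6% lower. The groups did not overlap for the same 3 members, against 29.1% of the tested miRNAs. With 5 members, these shares were not tested against the background. No member changed by more than 2-fold beside an adjusted p under 0.05, where 9.27% of the tested miRNAs did. The median difference (TULP minus sham, log2) was 0.24 over the 5 members and -0.02 over all 151. In bulk tissue, fewer cells of a type and less RNA per cell cannot be told apart, and this holds for each difference below.

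**Figure D1:**
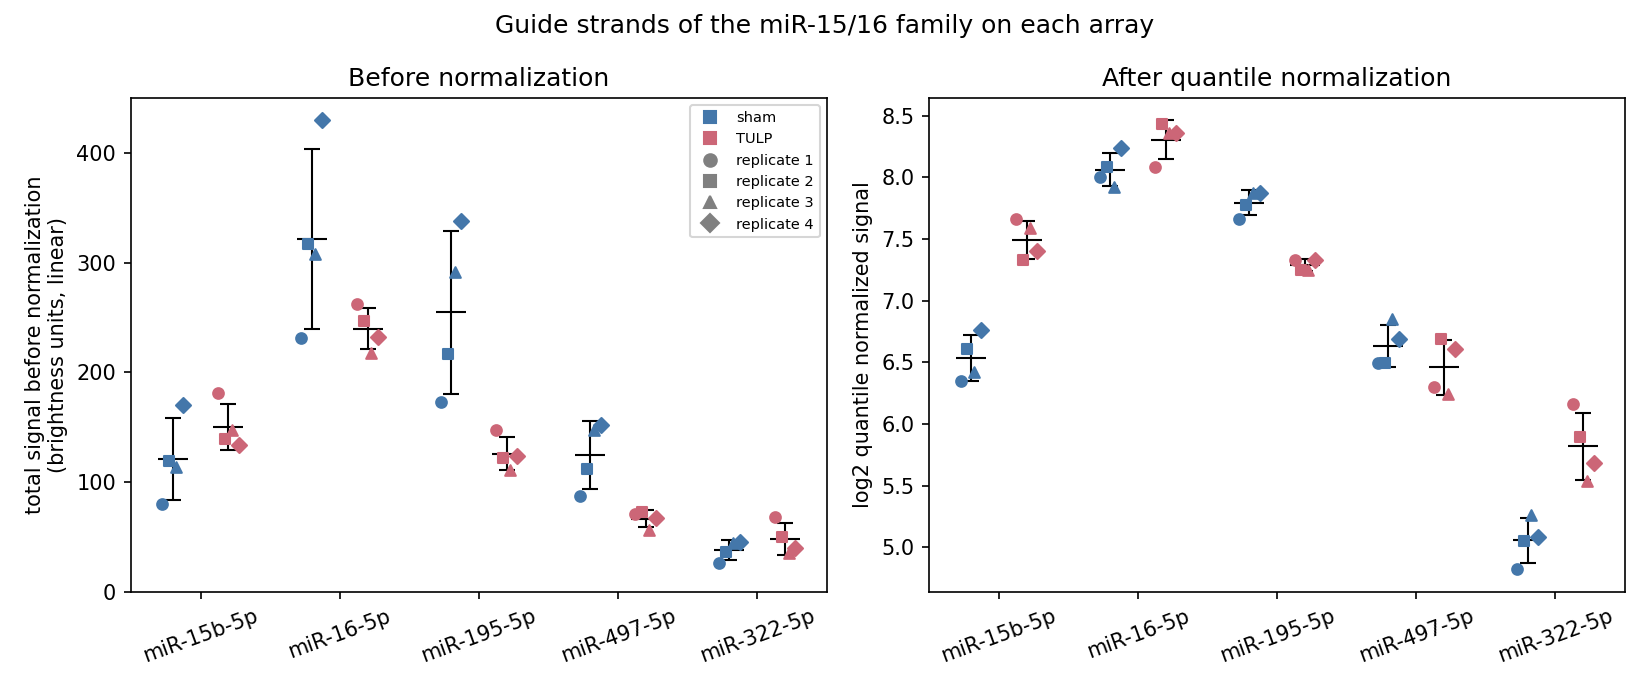
Signal of the 5 guide strands on each of the 8 arrays, in linear brightness units before normalization (left) and as log2 values after quantile normalization (right). Each point is an array, the black cross bar and whiskers give the mean and SD of 4 arrays, and the marker shape gives the replicate number. After normalization the groups do not overlap for miR-15b-5p, miR-195-5p and miR-322-5p, while before it the sham points spread more widely than the TULP points for all but miR-322-5p.

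The miR-15b/16 pair lies in the host gene of a condensin subunit, and 1 of its partners passed the test. rno-miR-15b-5p had log2 signals of 6.35, 6.60, 6.42 and 6.76 in sham and of 7.66, 7.33, 7.59 and 7.40 in TULP. All 4 TULP arrays lay above all 4 sham arrays. The means were 6.54 ± 0.19 and 7.50 ± 0.15 (SD, n = 4 each). The difference of 0.96 (SE 0.13, 95% confidence interval 0.66 to 1.26) corresponds to 1.94-fold more normalized signal (1.58-fold to 2.40-fold), with a limma adjusted p of 0.00320. By p it ranked 5 and by the size of the difference 22 among the 151 tested miRNAs.

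rno-miR-16-5p had log2 signals of 8.01, 8.08, 7.92 and 8.24 in sham and of 8.08, 8.43, 8.36 and 8.36 in TULP. TULP replicate 1 lay among the sham arrays and the other 3 TULP arrays lay above them. The means were 8.06 ± 0.13 and 8.31 ± 0.16 (SD, n = 4 each), and the difference of 0.24 (SE 0.12, 95% confidence interval -0.02 to 0.51) had a limma adjusted p of 0.153. Without TULP replicate 1 it was 0.32 and passed, with an adjusted p of 0.0404. Its direction also rested on the scaling, as the values without normalization show further on.

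The pair of miR-195 and miR-497 is made from one precursor transcript and is known from muscle and heart. rno-miR-195-5p had log2 signals of 7.66, 7.78, 7.87 and 7.87 in sham and of 7.33, 7.25, 7.25 and 7.33 in TULP. All 4 TULP arrays lay below all 4 sham arrays. Quantile normalization gave TULP replicates 1 and 4 the same value, and likewise replicates 2 and 3. Before it, their signals ran from 111 to 147 brightness units, so the small TULP spread after normalization partly reflects these shared values. The log2 means were 7.80 ± 0.10 and 7.29 ± 0.05 (SD, n = 4 each), and the difference was -0.51 (SE 0.086, 95% confidence interval -0.71 to -0.31). This is 1.42-fold less normalized signal in the TULP group (1.24-fold to 1.63-fold), with a limma adjusted p of 0.00647. It was lower, with an adjusted p under 0.05, under every other setting that gave it a test.

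rno-miR-497-5p had log2 signals of 6.50, 6.50, 6.85 and 6.69 in sham and of 6.30, 6.69, 6.24 and 6.60 in TULP. TULP replicates 1 and 3 lay below all sham arrays and the other 2 lay among them. The means were 6.63 ± 0.17 and 6.46 ± 0.22 (SD, n = 4 each). The difference of -0.18 (SE 0.14, 95% confidence interval -0.51 to 0.16) had a limma adjusted p of 0.446.

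Of the pair of miR-322 and miR-503, the first member was measured on all arrays. rno-miR-322-5p had log2 signals of 4.82, 5.05, 5.26 and 5.09 in sham and of 6.16, 5.89, 5.54 and 5.68 in TULP. The TULP arrays lay above the sham arrays, with a gap from 5.26 to 5.54 between the groups. The means were 5.06 ± 0.18 and 5.82 ± 0.27 (SD, n = 4 each). The difference of 0.76 (SE 0.16, 95% confidence interval 0.38 to 1.14) corresponds to 1.70-fold more normalized signal (1.31-fold to 2.20-fold), with a limma adjusted p of 0.0132. This call was lost under 6 other settings, among them the fit with the slide row as a block (0.71, adjusted p = 0.0511).

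rno-miR-503-5p, known to be made with miR-322, passed detection on TULP replicate 2 alone, with a total of 4.91 brightness units from 1 of its 2 probes, at 3.53 times the error. The same probe gave 2.99 and 2.75 units on TULP replicates 3 and 4, at 2.18 and 2.14 times the error, and 0.703 units on TULP replicate 1. On the sham arrays it gave -0.341, 1.20, 0.641 and 2.05 units. The other probe was below 0 on all 8 arrays. The total that the scanner software stored for miR-503-5p on TULP replicate 2 was higher than the sum used here, at 23.5 units. The probes pair with bases 9 to 23 and 8 to 23 of the strand, over 15 and 16 bases. No fold is given, since neither group was detected as a whole.

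The passenger strands are usually degraded after the guide is loaded. Their highest probe signals over error were 2.06 for miR-15b-3p, 1.37 for miR-16-3p and 2.14 for miR-322-3p. For miR-195-3p, miR-497-3p and miR-503-3p every probe was below 0 on every array. All 6 stayed under the limit of 3 times the error, so no array gives a level for them.

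**Figure D2:**
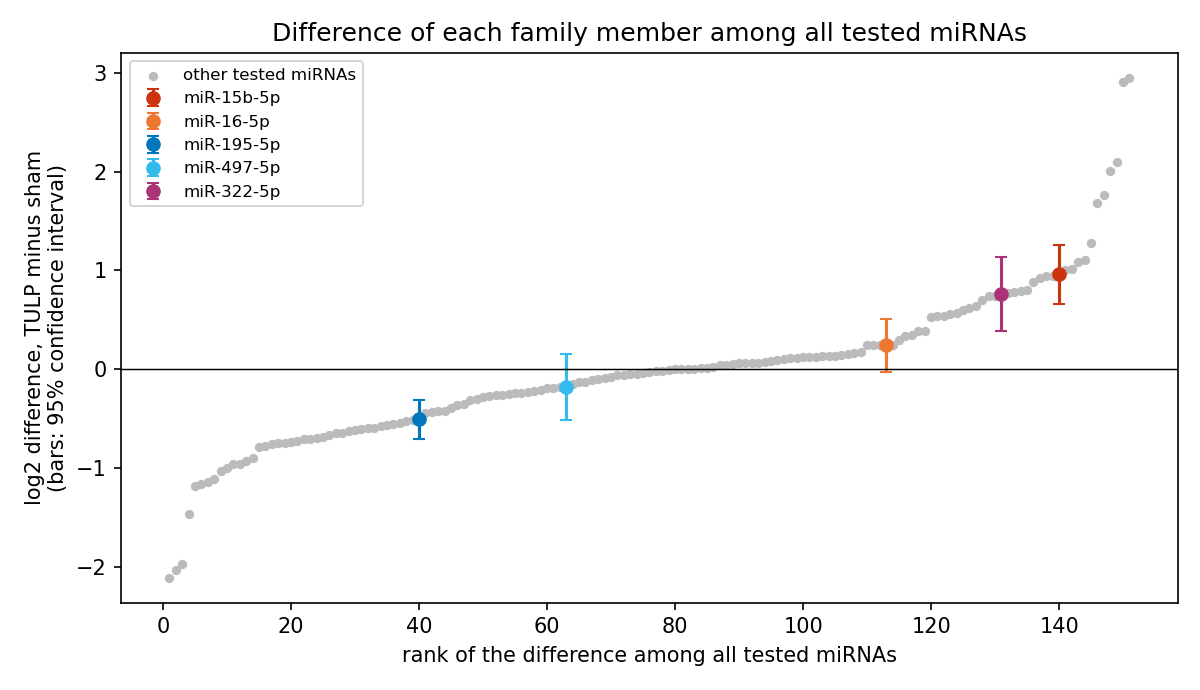
Difference between the groups (TULP minus sham, log2, vertical axis) of the 151 tested miRNAs in order of their difference (horizontal axis). Grey points are the other miRNAs and coloured points are the 5 guide strands with their 95% confidence intervals, which lie above 0 for miR-15b-5p (0.66 to 1.26) and miR-322-5p (0.38 to 1.14), below 0 for miR-195-5p (-0.71 to -0.31) and across 0 for miR-16-5p and miR-497-5p.

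Partners made from one transcript can be compared on the same array, where a scale factor common to that array cancels. Different probes bind with different strength, so the size of such a ratio has no meaning of its own and only its shift between groups does. Of the 3 pairs, 2 could be tested, since miR-503-5p was not measured on enough arrays. Another copy of miR-16 lies in the cluster of miR-15a, and its share of the miR-16-5p signal was not tested. For miR-15b-5p minus miR-16-5p, the log2 difference was -1.66, -1.48, -1.50 and -1.48 in sham and -0.42, -1.10, -0.77 and -0.96 in TULP. All TULP arrays lay above all sham arrays, with means of -1.53 ± 0.09 and -0.81 ± 0.29 (SD, n = 4 each). The shift of 0.72 had a two-sided exact permutation p of 0.0286, the smallest that the 70 labellings of 4 arrays against 4 can give, and 0.0571 after adjustment over the 2 pairs, which misses 0.05. At that smallest p, the adjusted value can fall below 0.05 only where the other pair reaches the same p. Missing 0.05 here therefore reflects the other pair. Before any normalization, the ratio of miR-15b-5p to miR-16-5p was 0.345, 0.376, 0.370 and 0.396 in sham and 0.691, 0.565, 0.674 and 0.578 in TULP. These ranges, too, did not overlap.

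For miR-195-5p minus miR-497-5p, the log2 difference was 1.16, 1.28, 1.02 and 1.19 in sham and 1.03, 0.56, 1.00 and 0.73 in TULP. TULP replicate 1 lay among the sham arrays. The means were 1.16 ± 0.11 and 0.83 ± 0.23 (SD, n = 4 each), and the shift of -0.33 had an exact permutation p of 0.0571, also after adjustment. Before normalization the ratio was 1.94 to 2.23 on the sham arrays and 1.67 to 2.08 on the TULP arrays, and the shift without normalization was -0.10.

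Ratios across clusters were computed after the values of the members had been seen and are given with no test. The ratio of miR-15b-5p to miR-195-5p before normalization was 0.391 to 0.548 on the sham arrays and 1.08 to 1.32 on the TULP arrays. The ratio of miR-322-5p to miR-497-5p was 0.296 to 0.326 and 0.590 to 0.963. In both, the lowest TULP array lay above the highest sham array. Each of these pairs sets a member seen to be higher against one seen to be lower, so the lack of overlap was fixed by the choice and supports nothing further. Neither of the 2 planned pair tests passed 0.05 after adjustment.

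**Figure D3:**
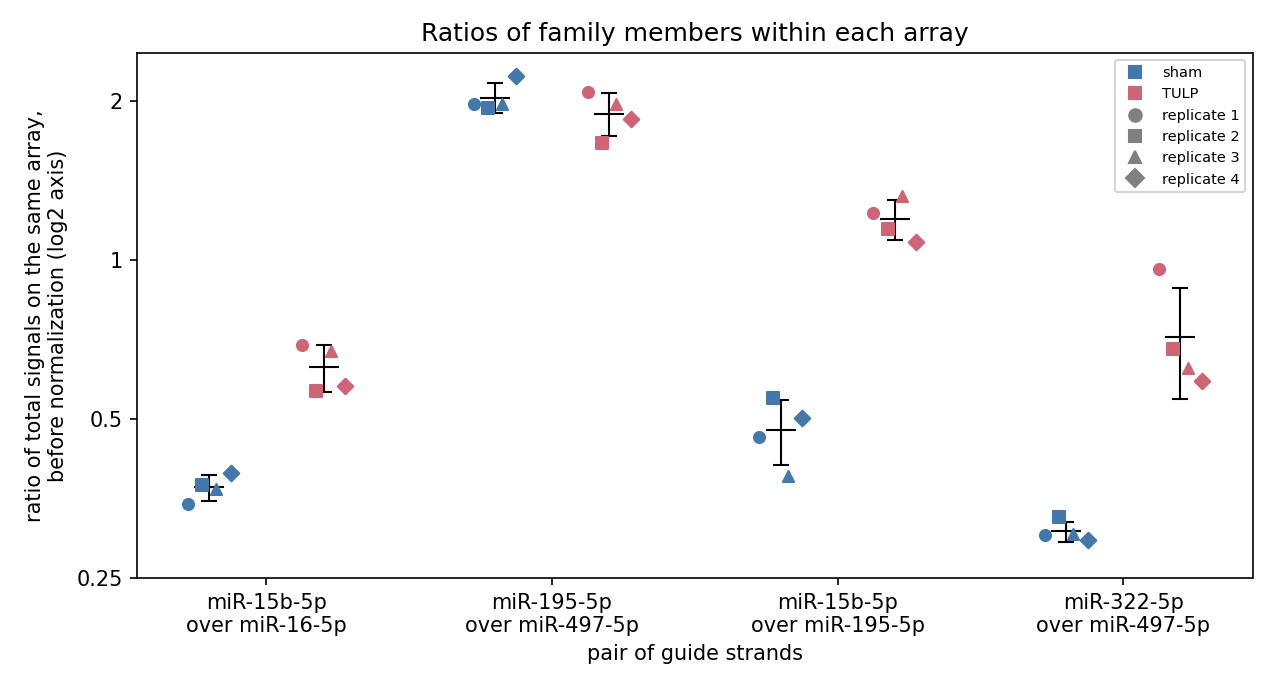
Ratio of the total signals of 2 guide strands on the same array before normalization (vertical axis, log scale) for 4 pairs (horizontal axis), with 1 point for each of the 8 arrays and the mean and SD of 4 arrays in black. The ratio of miR-15b-5p to miR-16-5p runs from 0.345 to 0.396 in sham and from 0.565 to 0.691 in TULP, the ratio of miR-195-5p to miR-497-5p overlaps between the groups, and the last 2 pairs were chosen after the values were seen.

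The direction of the members depends in part on how arrays are scaled. Signal summed over detected miRNAs was lower in the TULP group, at 14.12 against 14.75 on the log2 scale, a difference of -0.64 (two-sided exact permutation p = 0.0286, n = 4 each). Quantile normalization removes this difference. In linear brightness units before normalization, miR-195-5p was 173, 217, 291 and 339 in sham and 147, 122, 111 and 124 in TULP. Its means of 255 ± 74.1 and 126 ± 15.3 (SD, n = 4 each) are 2.02-fold apart and the groups did not overlap. miR-497-5p was 87.6, 112, 148 and 152 in sham and 70.7, 73.0, 56.2 and 67.0 in TULP, again without overlap, with means 1.87-fold apart.

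The other 3 members overlapped between groups before normalization. miR-15b-5p had means of 121 ± 37.3 in sham and 151 ± 21.1 in TULP, and miR-322-5p had means of 38.1 ± 8.76 and 48.1 ± 14.6 (SD, n = 4 each). For miR-16-5p the order turned, with 322 ± 82.0 in sham and 240 ± 19.0 in TULP. On the log2 scale without normalization, the differences were 0.36 for miR-15b-5p, -0.39 for miR-16-5p, -0.98 for miR-195-5p, -0.87 for miR-497-5p and 0.32 for miR-322-5p, while the median of all tested miRNAs was at -0.55. With arrays scaled to 2 labelling spike-ins, synthetic RNAs added for the labelling step, they were 0.13, -0.62, -1.21, -1.10 and 0.09, with the median at -0.78. Measured from that median, the last set becomes 0.91, 0.16, -0.42, -0.32 and 0.87. Across these scalings miR-15b-5p and miR-322-5p were above 0, miR-195-5p and miR-497-5p were below 0, and miR-16-5p was above 0 except without normalization and with the spike-ins. In these 2 settings miR-15b-5p and miR-322-5p no longer passed the test, while miR-497-5p did. With the spike-ins miR-16-5p passed as well, as lower (limma adjusted p = 0.0143). Which scale is the right one for this tissue was not tested.

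**Figure D4:**
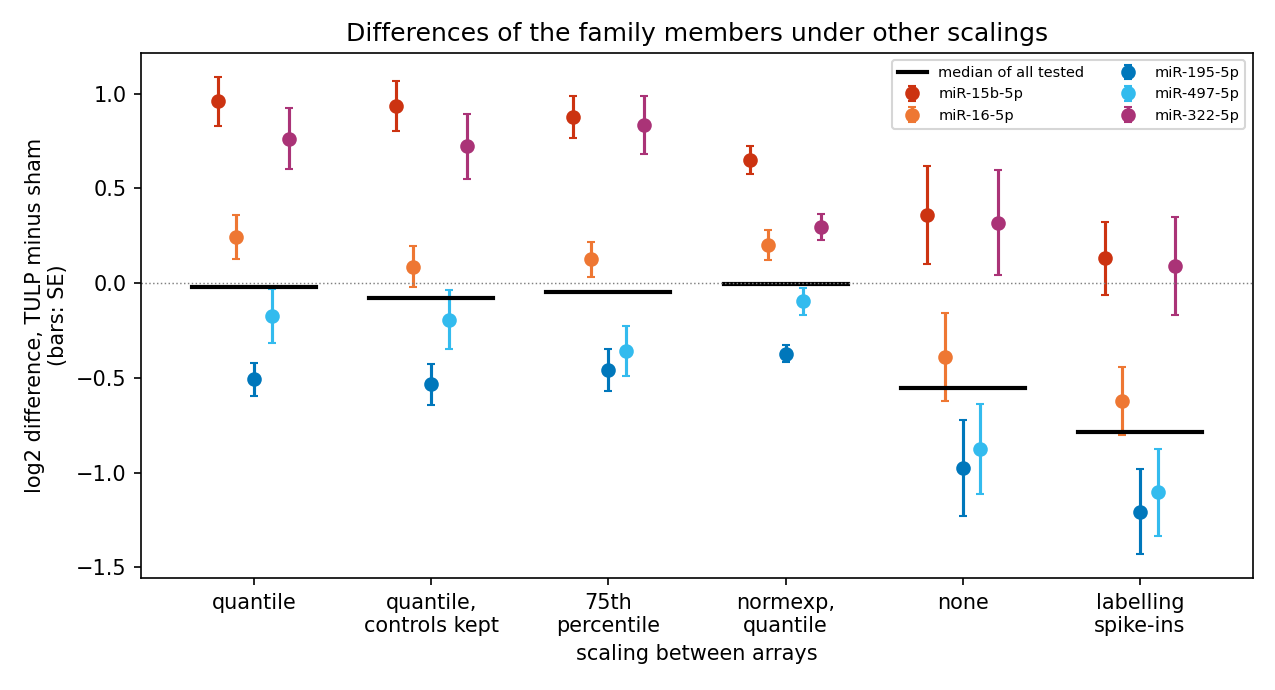
Difference between the groups (TULP minus sham, log2, vertical axis) of the 5 guide strands under 6 scalings of the arrays (horizontal axis), with the standard error as bars and the median of all 151 tested miRNAs as a black line. The members keep the same order, while the line drops from -0.02 with quantile normalization to -0.55 with no normalization and -0.78 with the spike-ins.

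Each guide strand was measured by 2 probes of different length, and they gave like differences. On log2 probe signals, after subtracting the median of each array over miRNAs detected on all arrays, the probes of miR-15b-5p gave 0.70 and 0.74, those of miR-322-5p gave 0.71 and 0.68, and those of miR-195-5p gave -0.63 and -0.60. Those of miR-497-5p gave -0.46 and -0.51. The probes of miR-16-5p gave 0.01 and -0.03, so its centred difference was near 0. The longer probe of each pair carried between 75.8% and 87.2% of the total signal.

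All 8 arrays lay on 1 slide and in 1 scan, in 2 slide rows that were not balanced between groups. The second row held sham replicates 1, 2 and 3 and TULP replicate 4. In that row the differences were 0.94 for miR-15b-5p, 0.35 for miR-16-5p, -0.44 for miR-195-5p, -0.01 for miR-497-5p and 0.63 for miR-322-5p. In the first row, with sham replicate 4 and TULP replicates 1, 2 and 3, they were 0.76, 0.05, -0.60, -0.28 and 0.78. Each member had the same sign in both rows, with 1 array of a group in each row and therefore no test within a row. Arrays detected 146 to 156 miRNAs in sham and 136 to 151 in TULP, and 0 spots were saturated. TULP replicate 1 correlated with its own group (mean Pearson r = 0.921 across miRNAs) hardly more than with the sham arrays (0.919), while the other 7 arrays correlated with their own group at 0.947 to 0.970. Without it, the differences of miR-15b-5p, miR-195-5p and miR-322-5p were 0.91, -0.53 and 0.65, and all 3 still passed.

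The miRNA whose profile was most like each member was found by the root mean square distance over the 8 arrays between log2 values centred on their own means. For miR-15b-5p it was a member of another cluster, miR-322-5p, at 0.238, where the median distance to all tested miRNAs was 0.679. For miR-322-5p it was miR-199a-5p, at 0.197 against a median of 0.610. miR-199a-5p is known from fibroblasts and smooth muscle, and its difference was 0.60 (limma adjusted p = 0.0257). For miR-195-5p it was let-7g-5p, at 0.0776 against 0.441. let-7g-5p belongs to the let-7 family, known to hold back growth and stem cell factors, and its difference was -0.54 (limma adjusted p = 0.00539). For miR-16-5p it was miR-324-3p, at 0.0772 against 0.451, and for miR-497-5p it was miR-107-3p, at 0.143 against 0.443. The distances describe these 8 arrays, which all pairs share, and have no test.

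The 2 distant relatives miR-103-3p and miR-107-3p carry the letters of the family seed shifted by 1 base, and are known to act on metabolism and on cyclin-dependent kinases. Their strands are shown for that shift, with bases 2 to 8 in capitals.
miR-103-3p: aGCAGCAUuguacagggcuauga
miR-107-3p: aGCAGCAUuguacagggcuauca
Within bases 1 to 8, AGCAGC was found in 8 of the 693 mature miRNAs of the RefSeq table, which are the 6 guide strands and these relatives. As above, miR-15a-5p was not among those found, so this count may also miss carriers. The difference was -0.02 (SE 0.12) for miR-103-3p and -0.24 (SE 0.12) for miR-107-3p, with limma adjusted p-values of 0.955 and 0.180. Neither passed the test.

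Of 14 other miRNAs known to restrain the cell cycle, 11 were tested, 1 was called higher and 1 lower, where 13.9% of all tested miRNAs were called higher and 16.6% lower. Their median difference was -0.01 beside -0.02 over all tested miRNAs. The list holds other let-7 miRNAs but not let-7g-5p, the called miRNA named above. With it added, after its values were seen, 12 were tested, 1 was higher and 2 were lower, and the median was -0.02. miR-34a-5p, a target of p53 that represses cyclins and CDKs, was the one higher. Its normalized signals were 29.8, 31.1, 34.9 and 28.3 in sham and 38.4, 71.5, 61.2 and 75.7 in TULP. The groups did not overlap, and the log2 difference was 0.95 (SE 0.22, limma adjusted p = 0.0161). miR-26b-5p, known to target EZH2 and cyclins, was the one lower. It had 126, 109, 137 and 116 in sham and 109, 81.6, 81.6 and 90.4 in TULP, where TULP replicate 1 reached the lowest sham array. Its log2 difference was -0.43 (SE 0.13, limma adjusted p = 0.0385). miR-34b-5p, miR-34c-5p and miR-449a-5p were detected on no array.

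Of 11 miRNAs associated with proliferation, 7 were tested, 2 were called higher and 0 lower, beside 13.9% and 16.6% of all tested miRNAs. Their median difference was 0.62 beside -0.02. miR-20a-5p, of the miR-17/92 cluster that E2F and MYC induce, had normalized signals of 15.5, 23.3, 23.0 and 21.6 in sham and 29.8, 48.8, 51.3 and 48.8 in TULP. The groups did not overlap, and the log2 difference was 1.08 (SE 0.22, limma adjusted p = 0.0124). miR-221-3p, known to repress the cell cycle inhibitors p27 and p57, was detected on 3 sham arrays and all 4 TULP arrays. Its log2 difference was 1.69 (SE 0.50, limma adjusted p = 0.0379), and the groups overlapped. Sham replicate 2, without detection, entered the fit at the floor. So did sham replicate 4, whose normalized signal of 1.81 lay below the floor, and the difference depends on that floor. The other 5 tested members did not pass. miRNAs known for opposite effects on division, such as miR-15b-5p and miR-20a-5p, were thus both higher in the TULP group after normalization.

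Some markers of other cells differed between the groups. Of 6 leukocyte miRNAs, 5 were tested and 2, miR-223-3p and miR-142-3p, were higher and 0 lower, beside 13.9% higher and 16.6% lower of all tested miRNAs. The median difference of the list was 0.89, which is the value of miR-155-5p (limma adjusted p = 0.236). That miRNA was detected on sham replicate 2 and TULP replicates 2, 3 and 4 alone. It thus passed the detection filter mostly through the TULP group, and the median describes no general shift of the list. miR-223-3p, a neutrophil and macrophage marker, was named for its mean over both groups, to which the TULP arrays contributed most. It differed by 2.10 (limma adjusted p = 0.00313), and miR-142-3p by 2.01 (limma adjusted p = 0.0163). Sham replicates 1 and 4 did not detect miR-142-3p and entered the fit at the floor, so the size of its difference depends on the floor. miR-150-5p, known from lymphocytes, lay the other way, with all TULP arrays below all sham arrays, a difference of -0.59 and a limma adjusted p of 0.0737. The summed normalized signal of the list was 54.8 to 78.0 in sham and 96.5 to 168 in TULP. Of 5 striated muscle miRNAs, 4 were tested and 3 were lower, with a median difference of -0.73. miR-1-3p, the brightest, differed by -0.74 (limma adjusted p = 0.0201), miR-133a-3p by -0.96 (0.00605) and miR-133b-3p by -0.72 (0.0163). The remaining tested marker, miR-206-3p, lay the other way, with a difference of 0.25 (limma adjusted p = 0.795). Its normalized signals were 626 to 1099 in sham, and 420, 1512, 1281 and 1647 on TULP replicates 1 to 4. The sum of the list was 4043 to 5659 in sham and 2639 to 4637 in TULP. Of 4 erythroid miRNAs, 2 were tested, and miR-486 was lower by -0.79 (adjusted p = 0.0498), with sums of 62.0 to 99.3 and 32.5 to 79.7. The other, miR-451-5p, differed by -0.66 (limma adjusted p = 0.597). It was undetected on TULP replicate 2, while its normalized signal on TULP replicate 4, 26.2, lay above the highest sham array, 17.6. miR-142-5p, miR-499-5p, miR-144-3p and miR-144-5p were detected on no array.

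For 3 further lists no member passed in either direction. The sums were 475 to 661 in sham and 387 to 921 in TULP for 7 epithelial miRNAs, of which 6 were tested, with a median difference of -0.63. The highest TULP sum was that of replicate 1, and the other 3 TULP arrays, at 387 to 469, lay below every sham array. miR-200b-3p, the brightest, differed by 0.00, and miR-429 by 0.01 (limma adjusted p = 0.992). In contrast, miR-200c-3p differed by -1.46 (limma adjusted p = 0.0753), miR-200a-3p by -0.71 (0.0874), miR-205 by -0.68 (0.285) and miR-141-3p by -0.57 (0.232). The sums were 648 to 928 and 634 to 1315 for 4 smooth muscle miRNAs, of which 2 were tested, with a median of -0.28. miR-143-3p, the brighter, differed by 0.07, and miR-145-5p by -0.63 (limma adjusted p = 0.356). For 2 endothelial miRNAs, of which 1, miR-126a-3p, was tested, with 0.01, the sums were 116 to 152 and 116 to 137. miR-143-5p, miR-145-3p and miR-126a-5p were detected on no array. The epithelial miRNAs expected of a urethral lining were detected in both groups, apart from miR-203a-3p, which was detected on 1 array. The part of leukocytes, muscle and epithelium in the differences of miR-15b-5p, miR-322-5p and miR-195-5p was not tested.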

How the data were processed

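Each of the 8 samples was hybridized in 1 colour to a rat miRNA array whose design uses build rn4, and read with Feature Extraction 10.7.1.1 per the labels and file headers. Per the file headers, spot intensity is on a linear scale, background subtracted and not normalized between arrays, and each probe signal has an error in the same unit. The labels describe labelled cRNA. The authors also deposited a table of quantile normalized log2 values, used as an alternative.

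Signals per miRNA were sums over probes with a total above 3 times the error, or 0.1 where no probe reached that, in place of the stored totals, which for some miRNAs exceed that sum. They were quantile normalized over the 758 rat miRNAs, raised to a floor of 1.94 (log2 0.96) and fitted with limma 3.58.1 in R 4.3.3, with Benjamini-Hochberg adjustment over the 151 miRNAs detected on at least 4 of 8 arrays. The fit was tested on simulated data. The number of arrays limits the precision. Groups came from the titles. Alternatives were the stored totals, the deposited table, the methods' t-test, 6 other scalings or corrections, other floors and filters, each array left out, the replicate number and the slide row as blocks.

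The members, lists and tests were chosen with earlier results of these data known. Named were all members, the relatives, called miRNAs of the cell cycle and proliferation lists, the brightest marker of each cell list and the nearest profile of each member. Other list members, among them further cell markers and undetected miRNAs, were named after their values were seen.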

Additional observations from a re-analysis of the deposited data

Results flagged for a closer look

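For miR-15b-5p minus miR-16-5p, sham replicate 1 lay apart from the other sham arrays, at -1.66 on the log2 scale where the other 3 lay between -1.50 and -1.48. Its gap to them, as a share of the whole range, exceeded Dixon's 95% critical value for 4 arrays. This was 1 of 14 groups of 4 examined, and about 1 in 20, here 0.7, would be found by chance. The array lay on the far side from the TULP arrays, and without it the shift between groups was 0.71.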

How the results depend on the processing

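The confidence intervals above give the precision of 4 arrays a group, and the detection limit of the arrays leaves miR-503-5p and the passenger strands without a comparison. Over 29 other settings, miR-195-5p stayed lower in all, from -1.21 to -0.37, and passed in all that gave a test. The difference of miR-15b-5p lay above 0 in all 29 and passed in all tests but 2, with the spike-ins and without normalization. With the labelling spike-ins, the differences were 0.13 (adjusted p = 0.603) for miR-15b-5p, -0.62 (adjusted p = 0.0143) for miR-16-5p, 0.0899 (adjusted p = 0.779) for miR-322-5p and -1.10 (adjusted p = 0.00275) for miR-497-5p, and 87 miRNAs were called, 53 of them over 2-fold. Without normalization they were 0.36 (adjusted p = 0.281), -0.39 (0.190), 0.32 (0.353) and -0.87 (0.0154), with 34 calls over 2-fold. These settings lower all miRNAs of the TULP arrays together. For miR-322-5p the call was also lost with the stored totals (0.50, adjusted p = 0.117, 28 calls), with no filter on detection (0.76, adjusted p = 0.104, 13 calls and 4 over 2-fold, over 758 miRNAs) and with the slide row as a block (0.71, adjusted p = 0.0511, 28 calls). Among miRNAs detected on all 8 arrays, 8 were called over 2-fold, and after normexp background correction 1 was. Apart from the effect of construction just named, the causes were not tested.

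The replicate numbers do not pair the arrays, since deviations of same-numbered arrays correlated at 0.13, -0.10, 0.27 and -0.10 and 2 of 8 arrays correlated best with their own number. With the replicate block, miR-322-5p had 0.76 with an adjusted p of 0.0613, and no other member changed its call. The shift of miR-15b-5p against miR-16-5p reached an exact adjusted p of 0.0286 in the deposited table (0.86), after normexp (0.45) and with control features kept on linear (0.85) or log2 values (0.86). That of miR-195-5p against miR-497-5p did so in the same 4, at -0.35, -0.28, -0.34 and -0.35. After adjustment over 2 pairs, either passes only where both reach the smallest exact p. Passing in these settings is therefore not a stronger result for miR-15b-5p against miR-16-5p. Single probes gave 0.70 and 0.74 for miR-15b-5p, 0.00872 and -0.0259 for miR-16-5p, -0.63 and -0.60 for miR-195-5p, and -0.46 and -0.51 for miR-497-5p. The first slide row gave 0.76 for miR-15b-5p, 0.0507 for miR-16-5p and -0.60 for miR-195-5p.

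With each array left out in turn, the differences were 0.91 to 1.04 for miR-15b-5p, 0.19 to 0.32 for miR-16-5p, -0.56 to -0.47 for miR-195-5p, -0.26 to -0.10 for miR-497-5p and 0.65 to 0.87 for miR-322-5p, with 3 or 4 members called. miR-16-5p passed as higher without TULP replicate 1 (0.32, adjusted p = 0.0404). The extremes over all its settings were 0.0143, with the spike-ins, where it was lower, and 0.918. Both pairs also passed without TULP replicate 1, and over the arrays left out their shifts ranged from 0.59 to 0.79 and from -0.41 to -0.23. Over all miRNAs, 28 to 57 were called, with 28 without sham replicate 3 and 30 without TULP replicate 3, and 9 to 21 over 2-fold, with 9 without TULP replicate 3.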

Other observations

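Relatives and neighbours of the clusters, named after their values were seen, were mostly below detection. miR-15a-5p and miR-15a-3p, of the paralogous cluster with another copy of miR-16, were detected on 0 of 8 arrays. The pair of miR-322 and miR-503 also lies near those of miR-351 and miR-542. miR-351-5p, miR-351-3p, miR-450a-5p, miR-450a-3p, miR-450b-5p, miR-450b-3p and miR-542-3p were detected on no array. miR-542-5p was detected on 3 sham and 3 TULP arrays, with a log2 difference of 0.11 (limma adjusted p = 0.906).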
